A study of Mus musculus with 7 samples.

Results

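The 10 genes described here mark the mural cells of blood vessels, that is pericytes and smooth muscle cells, in 7 mouse tumours. They were taken by symbol from the deposited count table: Rgs5, Pdgfrb, Cspg4, Mcam and Notch3 for pericytes, and Acta2, Tagln, Myh11, Des and Cnn1 for smooth muscle. All 10 were present among the 24421 genes of the table, and 9 passed the filter on low counts. Cnn1 did not pass and is given by its counts.

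Polyadenylated RNA of each tumour, labelled week 4, was sequenced as 1 library per mouse. Every mouse was given anti-PD-1, an antibody to a checkpoint receptor on T cells. In 3 control mice it was given with anti-KLH, a control antibody, and in 4 mice with anti-LAIR1, an antibody to a collagen-binding inhibitory receptor of leukocytes. The series text describes 344SQ tumours grown under the skin of 129/Sv mice aged 6 to 8 weeks, a line from K-rasLA1/+p53R172H∆g/+ mice, as well as lung tumours of KrasLSL-G12D/p53fl/fl mice induced with an adenovirus carrying Cre. The series text also states an age of 3 to 4 months and a time of 2 months after infection. The labels do not say which model gave these tumours, nor the age or sex of single mice. Doses of 10 mg/kg anti-LAIR and 8 mg/kg anti-PD-1 are stated for the 344SQ model. Control mice have names beginning with LOHM or KWM and treated mice WTSV, so whatever these prefixes stand for and the treatment cannot be told apart.

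Pericytes sit on capillaries inside the basement membrane and are recruited by PDGF-B from endothelial cells through the receptor PDGFR-beta, and smooth muscle cells wrap larger vessels. Notch3, activated by ligands on neighbouring endothelium, maintains mural identity. The contractile genes are driven by serum response factor (SRF) with myocardin-related coactivators. Several members are shared with other cells: activated fibroblasts express Acta2, Tagln and Pdgfrb, endothelium expresses Mcam, and striated muscle expresses Des. In bulk tissue, fewer cells of a type and less RNA per cell cannot be told apart.

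Total counts ranged from 9879762 to 26255727 per library, and 3 counts corresponded to between 0.119 and 0.305 CPM (counts per TMM-scaled library total). The tumours carried epithelial RNA, with 10 epithelial markers summing to between 6079 and 8475 CPM. The lung lineage factor Nkx2-1 lay between 129 and 210 CPM. The 16 endothelial markers summed to between 299.6 and 315.6 CPM in controls and between 318.0 and 417.9 CPM with anti-LAIR1, without overlap. The 15 fibroblast markers summed to between 3138 and 3383 CPM in controls and between 2214 and 3823 CPM with anti-LAIR1. The 17 skeletal muscle markers lay between 12.5 and 16.8 CPM in controls but spread from 17.1 to 130 CPM with anti-LAIR1. Replicate 2 was the low anti-LAIR1 library, and the other 3 were at 94.7 CPM or more. Replicate numbers follow the order of deposit and only name a library, so the same number in both groups links no mice.

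No member differed between the groups by the adjusted test. With edgeR's quasi-likelihood test, 0 of the 9 tested members had an adjusted p under 0.05, as did 0% of the 13545 genes tested. At an unadjusted p under 0.05, 3 members were higher with anti-LAIR1 (Des, Rgs5 and Mcam) and none was lower, while 3.51% of all genes tested were higher at that level. The median log2 fold change, anti-LAIR1 minus control, was 0.45 over the 5 pericyte members and 0.05 over the 4 tested smooth muscle members, against -0.0028 over all genes. Des and Mcam were higher in every anti-LAIR1 library than in every control, 2 of 9 against 3.06% of all genes. Des passed the count filter through the treated libraries alone, so these counts and the smooth muscle median are a description. That median covers Des at 2.51, Myh11 at 0.21, Acta2 at -0.11 and Tagln at -0.45, and leaves out Cnn1. None of the 9 was lower without overlap, against 2.51% of all genes.

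**Figure D1:**
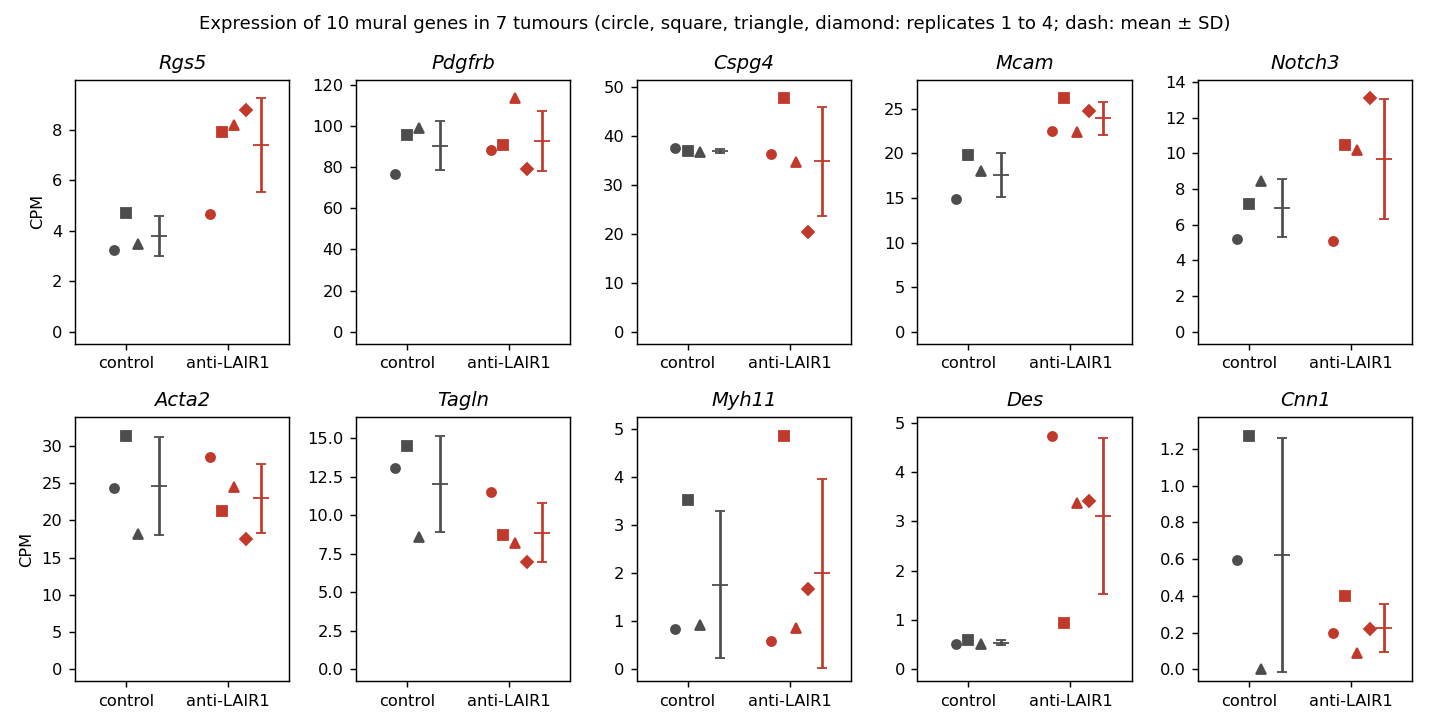
CPM of the 10 members in each of the 7 libraries, 1 panel per gene with its own linear axis; symbols mark replicates, and dashes with bars the group mean ± SD. Mcam and Des separate the groups, the 3 control libraries of Cspg4 lie together, and Myh11 is high in replicate 2 of each group.

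Levels of different genes were compared per length, as CPM per kilobase of merged exon. Pdgfrb was the most abundant member at 16.7 ± 2.28 (SD over 7 libraries), followed by Acta2 at 11.6 ± 2.51, Mcam at 7.10 ± 1.31, Tagln at 6.41 ± 1.77 and Cspg4 at 4.41 ± 0.988. Rgs5 at 1.29 ± 0.521 and Notch3 at 1.06 ± 0.367 came next. Des at 0.664 ± 0.586, Myh11 at 0.286 ± 0.249 and Cnn1 at 0.157 ± 0.172 were the lowest. Cspg4 and Rgs5 were the only neighbours in this order whose ranges over libraries did not overlap, Cspg4 staying at 2.51 or more and Rgs5 at 1.93 or less. The gene for the classical contractile myosin, Myh11, was thus far below Acta2 and Tagln, 2 genes that activated fibroblasts also use.

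Rgs5, a regulator of G protein signalling that is one of the most specific pericyte markers (chromosome 1, 169655501 to 169695813, GRCm38), measured 3.25, 4.71 and 3.46 CPM in control replicates 1 to 3. With anti-LAIR1 it measured 4.67, 7.92, 8.20 and 8.79 CPM in replicates 1 to 4. Of the treated libraries, 3 stood above every control, and replicate 1 lay at the level of the highest control. The log2 fold change was 0.96 (SE 0.27, 95% interval 0.36 to 1.56, edgeR adjusted p = 0.729). It lay between 0.84 and 1.14 in fits that left out 1 library.

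Mcam, a cell adhesion molecule of the immunoglobulin superfamily also known as CD146 (chromosome 9, 44134469 to 44142727), measured 14.9, 19.8 and 18.0 CPM in controls and 22.5, 26.1, 22.4 and 24.8 CPM with anti-LAIR1. All treated libraries were above all controls, and the spread within the treated group was small (23.9 ± 1.85 CPM, SD, n = 4, against 17.6 ± 2.48, n = 3). This corresponded to a log2 fold change of 0.45 (SE 0.13, 95% interval 0.15 to 0.75, edgeR adjusted p = 0.762).

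Notch3 encodes the Notch receptor of mural cells (chromosome 17, 32120820 to 32166852). It measured 5.19, 7.18 and 8.45 CPM in controls and 5.07, 10.4, 10.2 and 13.1 CPM with anti-LAIR1. Anti-LAIR1 replicate 1 was the lowest of all 7 libraries and the other 3 treated libraries were the highest, the same treated library that was low for Rgs5. Notch3 had a log2 fold change of 0.50 (SE 0.31, 95% interval -0.20 to 1.20, edgeR adjusted p = 1.00). It was 0.72 without that library, the highest of the fits that left out 1 library, and 0.31 in the lowest of them. An antisense gene, Gm17276, overlaps 21024 bases of the Notch3 locus on the other strand, and with the strand setting of the counting not given in the sources used here, its reads cannot be told apart from those of Notch3.

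Pdgfrb, the receptor for PDGF-B (chromosome 18, 61045150 to 61085061), measured 76.7, 95.8 and 98.7 CPM in controls and 88.2, 90.5, 113.3 and 79.0 CPM with anti-LAIR1. The groups overlapped throughout. Its log2 fold change was 0.04 with a 95% interval from -0.27 to 0.34 (edgeR adjusted p = 1.00), the narrowest interval of any pericyte member other than Mcam. Cspg4, the NG2 proteoglycan of pericytes (chromosome 9, 56865033 to 56899870), measured 37.5, 37.0 and 36.7 CPM in controls and 36.5, 47.8, 34.8 and 20.4 CPM with anti-LAIR1. The controls were nearly identical while treated replicate 2 was the highest and replicate 4 the lowest of all libraries. Its log2 fold change was -0.09 (95% interval -0.63 to 0.45, edgeR adjusted p = 1.00). The 6 markers of Schwann cells, another cell type of tumour stroma, summed to between 12.93 and 22.52 CPM in controls and between 12.95 and 24.28 CPM with anti-LAIR1.

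**Figure D2:**
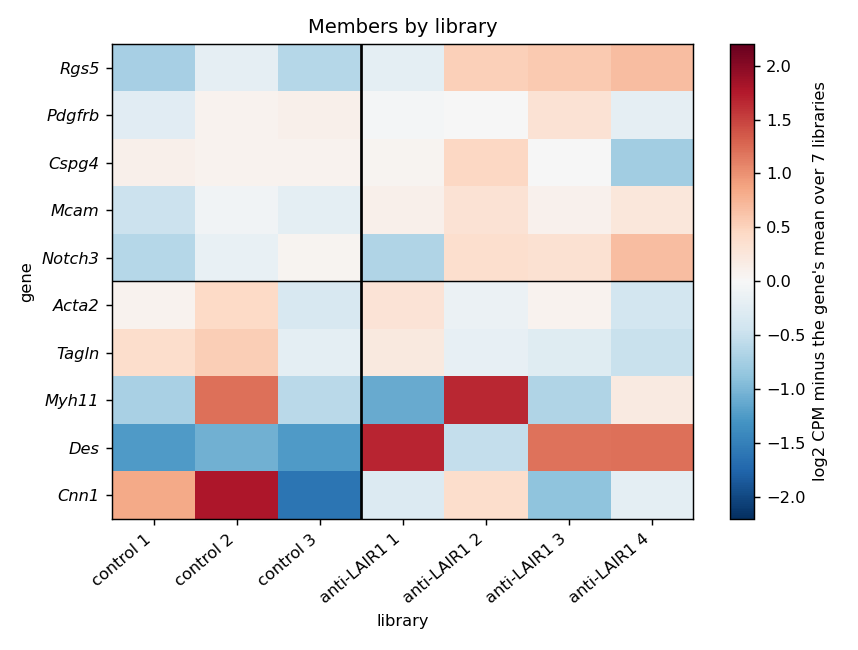
Log2 CPM of each member minus its own mean over the 7 libraries (colour, log2 units), with pericyte members above the line and smooth muscle members below it. Rgs5, Mcam and Notch3 are above their mean in anti-LAIR1 replicates 2 to 4, whereas Acta2 and Tagln share a different order.

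The smooth muscle members did not move as 1 group. Acta2, smooth muscle alpha-actin (chromosome 19, 34241090 to 34255590), measured 24.4, 31.3 and 18.2 CPM in controls and 28.4, 21.3, 24.5 and 17.4 CPM with anti-LAIR1. Both groups covered nearly the same range. Its log2 fold change was -0.11, with a 95% interval from -0.58 to 0.36 (edgeR adjusted p = 1.00). Coding sequences of the actin genes resemble one another closely, so the counts of Acta2 carry some uncertainty from shared reads.

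Tagln, the actin-binding protein transgelin (chromosome 9, 45929619 to 45936058), measured 13.1, 14.5 and 8.55 CPM in controls and 11.5, 8.71, 8.20 and 6.97 CPM with anti-LAIR1. Its highest libraries were control replicates 1 and 2, and control replicate 3 lay within the treated range. The log2 fold change was -0.45 (SE 0.23, 95% interval -0.96 to 0.06, edgeR adjusted p = 0.980), and it was below 0 in all 15 alternative fits, from -0.64 to -0.17. On the other strand, the antisense gene Gm48529 overlaps 3627 bases of the Tagln locus and Pcsk7 overlaps 108 bases. Pcsk7 has counts of its own and Gm48529 has none. These overlaps are of whole gene spans, introns included, and no source used here states the strand setting of the counting. Whether reads of these genes were counted for Tagln cannot be told.

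The sequence upstream of the start was searched for the CArG box bound by SRF and for the RBPJ motif TGGGAA of the Notch pathway. RefSeq promoter sequences (GRCm38) were matched for 7 of the 10 members, not for Pdgfrb, Tagln or Myh11, and the 250 bases before the start were read on both strands. Acta2 alone held matches: 2 CArG-like elements, in which 1 base of the A/T core is another base, and 1 RBPJ motif that overlaps the second of them. Among 27025 promoters, 8.65% held a CArG box or CArG-like element and 21.5% the RBPJ motif. The other 6 windows (Rgs5, Cspg4, Mcam, Notch3, Des and Cnn1) held neither set of letters. The Acta2 elements are shown, with the motif in capitals and 5′ to 3′ on the minus strand, because Acta2 is the most abundant contractile member per length and the 1 member with matches. A match is a description of the letters and not of binding. Positions are counted from the RefSeq start at 34255373, which lies inside the GENCODE span of Acta2 given above, so the elements lie before the RefSeq start but within that longer gene model.
Acta2 first CArG-like element, chr19:34255438-34255467, 84 to 75 bases before the RefSeq start: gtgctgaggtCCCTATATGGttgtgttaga
Acta2 second CArG-like element, chr19:34255388-34255417, 34 to 25 bases before the RefSeq start: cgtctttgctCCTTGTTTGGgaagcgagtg
Acta2 RBPJ motif, chr19:34255383-34255412, 27 to 22 bases before the RefSeq start: ttgctccttgttTGGGAAgcgagtgggagg

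Myh11, the smooth muscle myosin heavy chain (chromosome 16, 14194535 to 14291372), measured 0.831, 3.52 and 0.916 CPM in controls and 0.593, 4.86, 0.863 and 1.67 CPM with anti-LAIR1. Replicate 2 of each group stood above the rest, an 8.19-fold range over the 7 libraries that cut across treatment. The log2 fold change of 0.21 had a 95% interval from -1.60 to 2.03 (edgeR adjusted p = 1.00). Without anti-LAIR1 replicate 2 it was -0.73, and without control replicate 2 it was 1.21, so single libraries set its direction.

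Cnn1, which encodes the actin-binding protein calponin 1 of differentiated smooth muscle (chromosome 9, 22099216 to 22109630), had 15, 17 and 0 counts in control replicates 1 to 3. With anti-LAIR1 it had 3, 6, 1 and 3 counts. In CPM these were 0.594, 1.27 and 0 against 0.198, 0.399, 0.0864 and 0.218. The 0 of control replicate 3 allows up to 0.305 CPM, which exceeds 3 of the 4 treated values, so the groups are not told apart at this depth. With no count filter the log2 fold change was -1.44 (SE 0.90, edgeR adjusted p = 0.918).

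Des showed the largest difference of the members. It encodes desmin, the intermediate filament of all muscle types and of many pericytes (chromosome 1, 75360329 to 75368579). It measured 0.515, 0.598 and 0.509 CPM in controls, from 13, 8 and 5 counts, and 4.74, 0.931, 3.37 and 3.41 CPM with anti-LAIR1, from 72, 14, 39 and 47 counts. Anti-LAIR1 replicate 2 was close to the controls and the other 3 treated libraries were far above them. The log2 fold change was 2.51 (SE 0.55, 95% interval 1.27 to 3.74, edgeR adjusted p = 0.624). Only the treated libraries reached the count filter, so Des could enter the test only by differing. DESeq2 gave it an adjusted p of 0.0109, the 1 member among the 0.39% of genes that DESeq2 called.

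**Figure D3:**
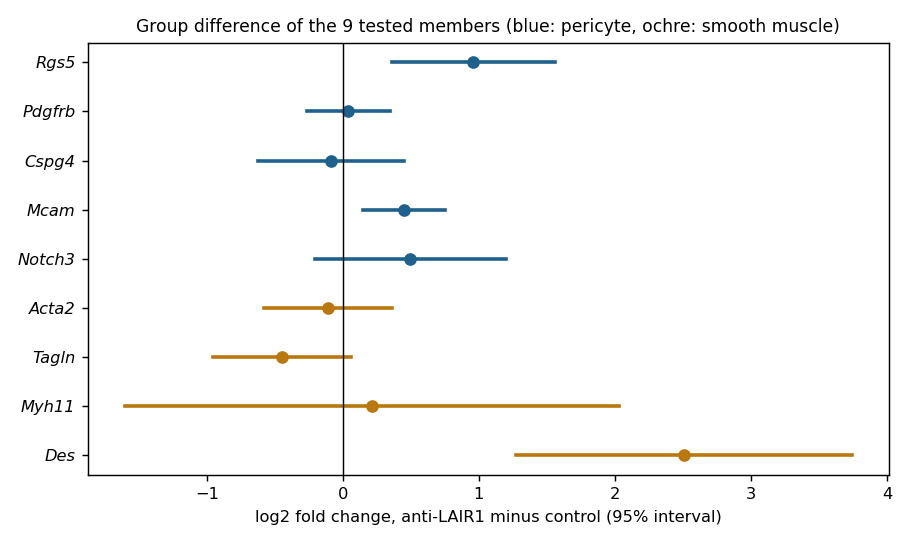
Log2 fold change, anti-LAIR1 minus control, of the 9 tested members with 95% intervals from edgeR's quasi-likelihood fit of 7 libraries. The intervals of Rgs5, Mcam and Des lie above 0 before any adjustment over genes, and that of Myh11 is the widest.

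As a summed level, skeletal muscle markers followed the same libraries as Des, but not every tested marker did. Tnni2 averaged 6.07 ± 0.809 CPM in controls and 6.40 ± 1.05 CPM with anti-LAIR1 (log2 fold change 0.08). Mybpc2 averaged 1.11 ± 0.680 and 1.40 ± 0.627 CPM (log2 fold change 0.36). Ttn, the giant sarcomere protein titin and both the most abundant and the lowest-p gene of the 17 skeletal muscle markers, averaged 4.43 ± 1.32 CPM in controls (SD, n = 3) and 63.4 ± 39.6 CPM with anti-LAIR1 (SD, n = 4). Its log2 fold change was 3.88 (edgeR adjusted p = 0.624). Of the 17 markers 7 passed the count filter, and Acta1, Myh1 and Atp2a1 were under its equivalent of 0.753 CPM in every control, so they could pass only through treated libraries and no count of directions is given. The mean log2 CPM of these 7 markers was -0.18, -0.13 and 0.43 in controls and 2.45, -0.19, 2.52 and 2.68 in anti-LAIR1 replicates 1 to 4. Acta1, Myh1 and Atp2a1 are part of this level, so it was built partly from genes that the treated libraries selected. The sum over all 17 markers, taken without the count filter, split the libraries in the same way. It was 94.7 CPM or more in a set of 3 with more muscle RNA and 17.1 CPM or less in a set of 4. The same 3 libraries were high for Des. Correlations of the members with the muscle level were among the 85 relations computed across libraries, but with libraries in 2 separate sets of under 6 a pooled coefficient is no test of a relation. That of Des did not pass adjustment (exact permutation, adjusted p = 0.517 for r and 0.691 for rho). With the skeletal muscle level as a covariate the log2 fold change of Des was 1.00 (SE 0.54, edgeR adjusted p = 1.00). The 3 libraries with more muscle RNA were all treated, so this covariate and the treatment are partly confounded. With the mean log2 CPM of the endothelial markers as covariate it was 3.83 (SE 0.83, edgeR adjusted p = 0.789). The 6 heart muscle markers summed to between 68.6 and 78.2 CPM in controls and between 44.0 and 74.2 CPM with anti-LAIR1. Most of this was Tnnt2, cardiac troponin T, at 67.3 ± 6.98 CPM in controls (SD, n = 3) and 53.8 ± 14.9 CPM with anti-LAIR1 (SD, n = 4). Myh6 averaged 3.37 and 4.30 CPM and Tnni3 1.66 and 1.28 CPM, while Myl7 and Nppa were at 0 counts in all libraries. Of the 4 muscle progenitor genes, Pax7, Myf5 and Myod1 were at 0 counts in all libraries. Myog was at 0 in the controls and read 0.0658 and 0.173 CPM in anti-LAIR1 replicates 1 and 3, both of which have more muscle RNA, under the level of 3 counts in each. In anti-LAIR1 replicate 2, where the 17 skeletal muscle markers summed to 17.1 CPM against 16.8 CPM in the highest control, Des was at 0.931 CPM against a highest control of 0.598 CPM. An antisense transcript on the other strand of Des, Gm15179, overlaps 368 bases of the Des locus and has counts of its own. The overlap is of whole gene spans, introns included, and no source used here states the strand setting of the counting. Whether reads of Gm15179 were counted for Des cannot be told.

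Cspg4 ran in the exact reverse order of the skeletal muscle level over the 7 libraries (rho -1, exact permutation p = 0.000397, adjusted p = 0.0337 over 85 relations), which with Mcam and the endothelial level made 2 relations that passed adjustment. The Pearson r was only -0.65, with the same p because a fully reversed order gives the most negative r that any pairing allows. It was -0.39 without the 2 libraries farthest from the median muscle level and -0.71 between deviations from the group means. The same limit of 2 separate sets holds, and the level includes Acta1, Myh1 and Atp2a1, which passed the count filter through treated libraries alone. The order among controls rests on Cspg4 values from 36.7 to 37.5 CPM, a spread below counting error.

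Mcam varied closely with the level of endothelial markers. Endothelial markers were above 0 in log2 fold change for 14 of 16 tested genes, with a median of 0.34, and 0 were called. The 2 below 0 were Esam, at -0.15, and Cldn5, at -0.40. Cldn5 was lower without overlap, at 5.31 to 5.40 CPM in controls and 2.98 to 5.12 CPM with anti-LAIR1. Plvap, Cdh5 and Vwf were higher without overlap. Of the 16 markers, 3 were thus higher and 1 lower, against 3.06% and 2.51% of all genes tested. Plvap, a protein of endothelial fenestrae and the marker with the smallest p, averaged 11.4 ± 2.87 CPM in controls (SD, n = 3) and 16.8 ± 1.79 CPM with anti-LAIR1 (SD, n = 4; log2 fold change 0.57, edgeR adjusted p = 0.868). Flt1, a VEGF receptor and the most abundant marker, averaged 128 ± 12.2 and 139 ± 41.7 CPM. Across the 7 libraries the log2 CPM of Mcam and the mean log2 CPM of the endothelial markers had a Pearson r of 0.98 (exact permutation p = 0.000794, two-sided, adjusted p = 0.0337 over 85 relations) and a Spearman rho of 0.96 (exact permutation p = 0.00278, adjusted p = 0.118). Without the 2 libraries farthest from the median endothelial level r was 0.96. Mcam and the endothelial level each separated the groups, so the permutation p-values include the group difference. Between deviations from the group means r was 0.94.

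Rgs5 followed the endothelial level less closely, with r = 0.90 (exact permutation p = 0.00476, adjusted p = 0.135) and rho = 0.86 (exact permutation p = 0.0238, adjusted p = 0.506). Without the 2 farthest libraries r was 0.94, and between deviations from the group means it was 0.69. Relative to the endothelial level, the log2 CPM of Rgs5 averaged -1.39 ± 0.21 in controls and -0.73 ± 0.35 with anti-LAIR1, with anti-LAIR1 replicate 1 at -1.23, inside the control range. The same difference for Mcam averaged 0.79 ± 0.11 in controls and 0.98 ± 0.03 with anti-LAIR1. For Pdgfrb it averaged 3.15 ± 0.10 and 2.92 ± 0.26, and for Tagln 0.23 ± 0.43 and -0.46 ± 0.36. With the endothelial level as a covariate the log2 fold changes were 0.30 for Rgs5 and 0.07 for Mcam (edgeR adjusted p = 1.00 for each). That level itself separated the groups, so the covariate and the treatment are partly confounded in these 7 libraries.

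**Figure D4:**
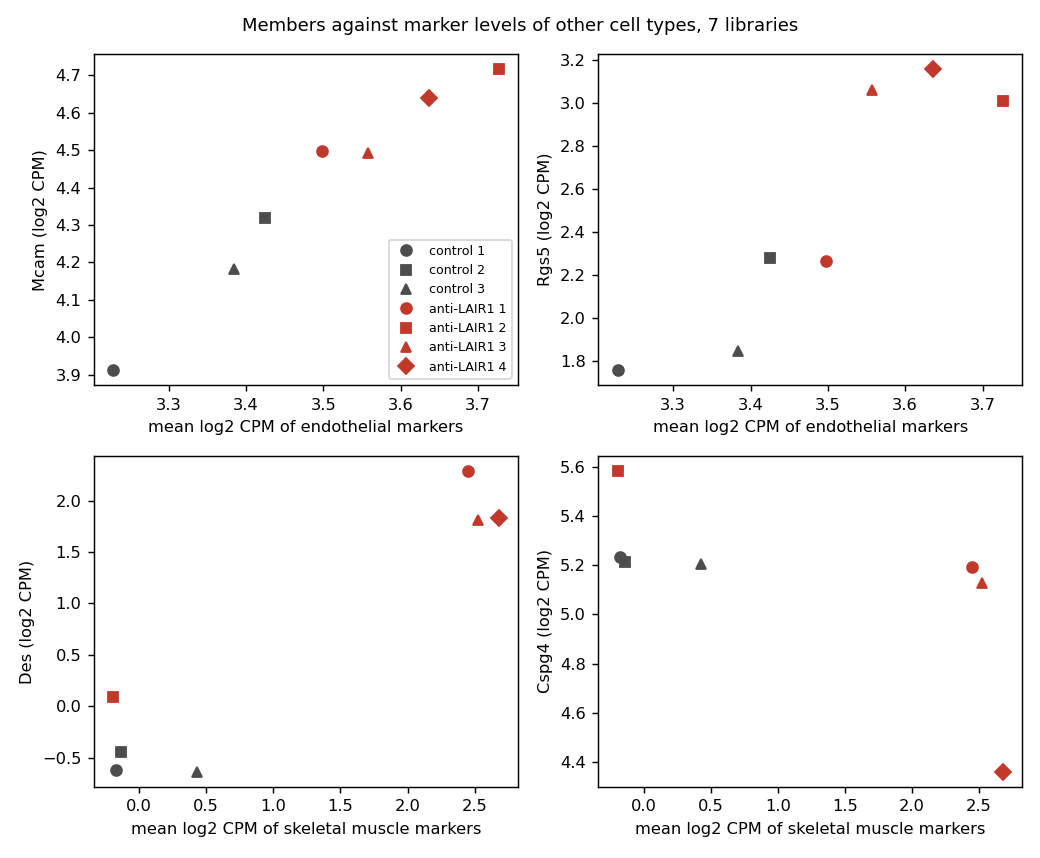
Log2 CPM of Mcam and Rgs5 against the mean log2 CPM of endothelial markers (top), and of Des and Cspg4 against that of skeletal muscle markers (bottom), 1 point per library. Mcam rises with the endothelial level across both groups, and Des is high in the 3 anti-LAIR1 libraries with more muscle RNA.

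Among the 45 pairs of members, none passed adjustment over the 85 relations. Rgs5 and Mcam had the highest r, 0.88 (exact permutation p = 0.00675, adjusted p = 0.143; rho 0.75, exact permutation p = 0.0663, adjusted p = 0.517), and r was 0.93 without the 2 libraries farthest in Rgs5 but 0.59 between deviations from the group means. Acta2 and Tagln had an r of 0.83 (exact permutation p = 0.0242, adjusted p = 0.412; rho 0.71, exact permutation p = 0.0881, adjusted p = 0.517), which was 0.72 without the 2 libraries farthest in Acta2 and 0.93 between deviations from the group means. Notch3 and Tagln ran in opposite order, with r = -0.83 (exact permutation p = 0.0302, adjusted p = 0.427; rho -0.75, exact permutation p = 0.0663, adjusted p = 0.517) -0.87 without the 2 libraries farthest in Notch3, and -0.79 between deviations from the group means. Over all 13536 other tested genes, those whose log2 CPM most resembled the mean pericyte profile over the 7 libraries were Mmadhc (r = 0.98), Fcrls (0.98), Cxcl12 (0.98), Chl1 (0.97) and Il1b (0.96). For the mean profile of Acta2, Tagln, Myh11 and Cnn1 they were Zcwpw1 (0.97), Setbp1 (0.96), Etohi1 (0.95), Hars2 (0.95) and Nsun6 (0.94). These are the highest of many values from 7 libraries and serve as a description only.

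Further pericyte genes lay slightly above 0 as a list. Of 17 listed, 14 were tested, 10 had a log2 fold change above 0 and 0 were called, with a median of 0.26. Anpep, the aminopeptidase CD13 of pericytes and myeloid cells, averaged 17.6 ± 0.942 CPM in controls (SD, n = 3) and 24.4 ± 3.55 CPM with anti-LAIR1 (SD, n = 4; log2 fold change 0.47, edgeR adjusted p = 0.762), without overlap. P2ry14, a receptor for UDP-sugars, averaged 0.880 ± 0.562 and 1.505 ± 0.896 CPM, and Enpep, glutamyl aminopeptidase, 3.56 ± 1.96 and 4.86 ± 0.943 CPM. Leukocytes also express Anpep, and the 8 leukocyte markers summed to between 105 and 136.7 CPM in controls and between 141 and 187 CPM with anti-LAIR1. The part of leukocytes in the Anpep difference was not tested.

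Further contractile genes were centred near 0. Of 21 listed, 18 were tested, 11 were above 0 and 0 were called, with a median of 0.03. Itga8, the integrin alpha 8 chain, averaged 1.96 ± 0.864 CPM in controls (SD, n = 3) and 3.13 ± 0.691 CPM with anti-LAIR1 (SD, n = 4; log2 fold change 0.72, edgeR adjusted p = 0.980), without overlap. Csrp1, a LIM protein of smooth muscle, averaged 140 ± 11.1 and 160 ± 16.5 CPM, and Tpm2, beta-tropomyosin, 2.61 ± 1.40 and 4.55 ± 1.88 CPM. Tpm2 is also made by skeletal muscle, whose summed markers differed between the libraries as given above.

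Transcriptional regulators of smooth muscle had a median log2 fold change of -0.04, with 4 of 8 tested genes above 0 and 0 called. Klf4, a factor that represses contractile genes, averaged 51.7 ± 7.62 CPM in controls (SD, n = 3) and 72.8 ± 16.0 CPM with anti-LAIR1 (SD, n = 4; log2 fold change 0.49, edgeR adjusted p = 0.933). Mkl1 and Mkl2, the SRF coactivators MRTF-A and MRTF-B, averaged 63.3 ± 4.24 and 138 ± 3.46 CPM in controls against 55.5 ± 5.79 and 129 ± 4.48 CPM with anti-LAIR1. Mkl2 was lower without overlap. Of the PDGF list, 3 of 5 tested genes were above 0, with a median of 0.07 and 0 called. Pdgfb, the ligand of PDGFR-beta, did not separate the groups at 41.6 ± 8.12 against 41.2 ± 5.42 CPM. The smallest p in that list belonged to Pdgfd, a second ligand of the same receptor, at 0.528 ± 0.200 and 1.18 ± 0.548 CPM, followed by Pdgfc at 246 ± 51.6 and 211 ± 84.1 CPM and the alpha receptor Pdgfra at 43.5 ± 5.15 and 45.8 ± 9.71 CPM. The highest control of Pdgfd was 0.673 CPM, under the filter's equivalent of 0.753 CPM, so it could pass only through treated libraries. Its place in the list, and the count and median that include it, are a description.

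Notch pathway genes other than Notch3 were above 0 for 10 of 12 tested, with a median of 0.17 and 0 called. Dll1, a Notch ligand, averaged 3.31 ± 0.939 CPM in controls (SD, n = 3) and 6.36 ± 1.83 CPM with anti-LAIR1 (SD, n = 4), without overlap (log2 fold change 0.96, edgeR adjusted p = 0.796). Rbpj, the DNA-binding partner of activated Notch, averaged 56.4 ± 7.44 and 65.7 ± 2.66 CPM, and Notch2 796 ± 61.4 and 736 ± 45.6 CPM. Genes of signalling between endothelium and mural cells were above 0 for 8 of 11 tested, with a median of 0.27 and 0 called. Angpt2, the angiopoietin that loosens pericyte contact, averaged 4.55 ± 1.13 and 8.69 ± 3.26 CPM (log2 fold change 0.95, edgeR adjusted p = 0.933). Cxcl12, a chemokine of stromal and endothelial cells, averaged 3.96 ± 2.54 and 13.2 ± 8.54 CPM, and S1pr1, the endothelial sphingosine-1-phosphate receptor, 9.24 ± 1.03 and 11.9 ± 1.62 CPM. S1pr1 was higher without overlap.

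**Figure D5:**
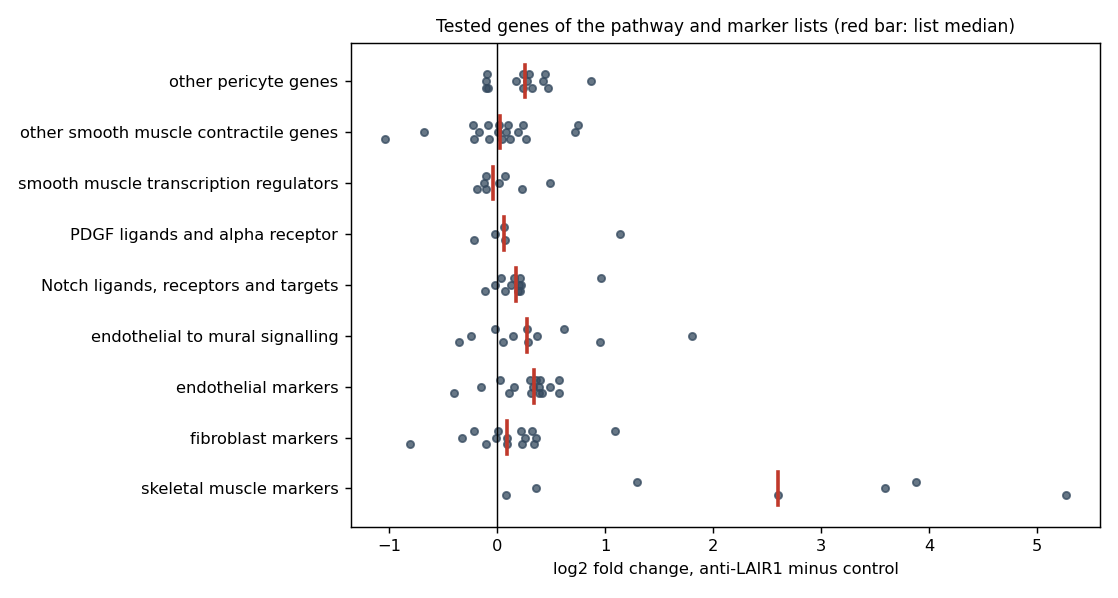
Log2 fold change, anti-LAIR1 minus control, of each tested gene in 6 pathway and 3 marker lists (points), with the list median as a red bar. Medians run from -0.04 for the transcription regulators to 0.34 for endothelial markers, leaving aside skeletal muscle markers, of which only 7 of 17 passed the count filter, some through treated libraries alone.

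Fibroblast markers, which share Acta2, Tagln and Pdgfrb expression with mural cells, had 10 of 15 tested genes above 0 and a median of 0.09, with 0 called. Lrrc15, a marker of activated fibroblasts and the lowest-p gene of that list, averaged 59.8 ± 8.71 CPM in controls (SD, n = 3) and 34.0 ± 9.72 CPM with anti-LAIR1 (SD, n = 4; log2 fold change -0.81, edgeR adjusted p = 0.753), without overlap. Col1a1, the most abundant fibroblast marker, averaged 991 ± 80.8 and 791 ± 173 CPM. Across the 7 libraries Acta2 and the mean log2 CPM of the fibroblast markers had r = 0.42 (exact permutation p = 0.345, adjusted p = 0.718; rho 0.39, exact permutation p = 0.396, adjusted p = 0.885), which was 0.73 without the 2 libraries farthest in the fibroblast level. For Tagln r was 0.14 (exact permutation p = 0.765, adjusted p = 0.885; rho 0.036, exact permutation p = 0.963, adjusted p = 0.97) and 0.77 without those 2 libraries, so both values turn on anti-LAIR1 replicates 2 and 3. Pdgfrb had r = 0.75 (exact permutation p = 0.0536, adjusted p = 0.517) and rho = 0.82 (exact permutation p = 0.0341, adjusted p = 0.517). Its r was 0.73 without those 2 libraries and 0.75 between deviations from the group means. Cspg4 had r = 0.74 (exact permutation p = 0.0913, adjusted p = 0.553) but rho = 0.25 (exact permutation p = 0.595, adjusted p = 0.899). Its r was 0.81 and 0.79 in the same 2 settings.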

How the data were processed

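RNA of 7 mouse tumours was sequenced, 3 controls and 4 with anti-LAIR1, and the authors deposited unnormalised read counts by symbol in a single table. The submitters' processing notes name the mm10 build, edgeR 3.40.1, featureCounts 2.0.1, STAR 2.7.6 and Trim Galore, without their roles, and no source used here gives the annotation or strand setting. Counts were tested in R 4.3.3 with edgeR 4.0.16: filterByExpr (minimum count 10), TMM, a robust quasi-likelihood fit of all 7 libraries over 13545 genes, and Benjamini-Hochberg adjustment at 0.05. SEs and 95% intervals were derived from the quasi-likelihood F statistic. CPM used TMM-scaled totals, and log2 CPM a prior count of 2. Values after ± are SDs. Floors of 3 counts cover counting error only. The members and lists were chosen with earlier results of these data known. All members were named, with the 3 smallest-p genes of each pathway list and the most abundant and smallest-p gene of the marker lists discussed. Genes of like pattern were the 5 with the highest Pearson r to each mean profile. Pdgfb was added after its values were seen. Other marker genes outside this rule are named as well, among them Nkx2-1, Esam, Cldn5, Cdh5, Vwf, Tnni2, Mybpc2, Acta1, Myh1, Atp2a1, Myh6 and Tnni3. The epithelial, Schwann cell and leukocyte lists are given by their sums, without the genes that the rule picks. Coordinates and exon lengths came from GENCODE M21 (GRCm38). DESeq2 1.42.0 and limma 3.58.1 served as alternatives. The fits were tested on simulated data. Correlations used exact permutations in scipy 1.17.1.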

Additional observations from a re-analysis of the deposited data

How the results depend on the processing

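No result for a member depended on scaling by library totals, upper quartile factors, no count filter or a CPM filter for its direction or its call. DESeq2 called 54 genes, of which 1 was a member, Des (log2 fold change 2.53). In fits without 1 library the number of genes called ranged from 0 to 3, the 3 arising without anti-LAIR1 replicate 2, and 0 members were called. Leaving out single libraries moved Pdgfrb from -0.074 to 0.11, Acta2 from -0.28 to 0.099, Myh11 from -0.73 to 1.21 and Cspg4 from -0.28 to 0.096, so these 4 have no settled direction. With limma-voom Cspg4 was 0.0042 and Myh11 -0.18. With the skeletal muscle covariate Pdgfrb was -0.0081 and Cspg4 0.32. With the endothelial covariate Pdgfrb was -0.060, Notch3 -0.45, Acta2 0.11 and Myh11 -3.04, and the causes were not tested. No paired analysis was possible because the labels number no replicates, and the numbers used here follow deposit order and link no mice. Genes with few counts, chiefly Cnn1, Myh11 and Des, are limited by depth.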

Other observations

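The 3 control libraries agreed on Cspg4 more closely than on any other member, with a coefficient of variation of 1.10%, below the 4.42% that counting error alone gives for 948, 494 and 361 counts. In the 4 anti-LAIR1 libraries it was 32.2%. The controls of Des likewise varied by 9.26% where counting error gives 36.6%, from 13, 8 and 5 counts. These are values of 3 libraries each, noticed after the data were seen, and no test of the difference in spread was made.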
